A study of Mus musculus with 4 samples.

Results

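The 78 mitochondrial ribosomal protein genes described here are nuclear genes named as proteins of the mitochondrial ribosome. They are the protein-coding genes whose GENCODE vM21 symbol is Mrpl or Mrps followed by a number and at most 1 letter. Whether every product is part of the ribosome was not checked. All 78 were among the 37437 genes of the files and all 78 passed the filter on low values, so they are 78 of the 11268 genes fitted. By symbol, 49 belong to the large subunit (Mrpl) and 29 to the small subunit (Mrps), and they lie on 17 chromosomes, with 11 on chromosome 11. The libraries came from total RNA of primary cortical cultures of mouse in which a virus of the adeno-associated type carried a knockdown of Ctcf (shCTCF, 2 libraries) or, as control, of the bacterial gene lacZ (shLAC, 2 libraries). The strain, the age of the animals and the time after infection are not given in the labels. Nor is it stated whether the libraries of a group are separate cultures, so each p-value measures only how far these libraries spread, which may be technical. CTCF binds DNA through zinc fingers and, together with cohesin, anchors chromatin loops. The question was which of these transcripts differed in level with CTCF knockdown, and whether the genes of the large subunit differed from those of the small subunit.

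The mitochondrial ribosome sits in the mitochondrial matrix and translates the few mRNAs of the mitochondrial genome, all of which encode membrane subunits of the respiratory chain and ATP synthase. Its ribosomal RNAs are transcribed inside the organelle, whereas every ribosomal protein is translated in the cytosol and imported. Some of the proteins have counterparts in bacterial ribosomes and others are specific to mitochondria. The small subunit decodes the mRNA, the large subunit joins the amino acids, and the growing chain leaves through an exit tunnel in the large subunit.

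Values were TPM, a length-corrected share of all transcripts of a library, which keeps no sequencing depth, so no counting interval is given. Satellite-like predicted genes held 1.29% and 1.86% of TPM in the shCTCF libraries, against 0.405% and 20.2% in the shLAC libraries, the highest share being in shLAC replicate 2. Levels below are therefore TPM divided by a median-ratio factor per library (scaled TPM), and log2 fold changes are those of log2(scaled TPM + 1), unless the deposited values are named. Ctcf itself averaged 3.32 ± 0.0992 scaled TPM in shCTCF and 8.47 ± 0.460 in shLAC (SD, n = 2 each), with a limma adjusted p of 0.00233. Over the fitted genes, log2(scaled TPM + 1) had a Pearson r of 0.9965 for the shCTCF pair, 0.9946 for the shLAC pair and 0.9899 to 0.9921 for pairs across the groups, as a description across genes. Of the cell type markers, those of neurons were expressed, as the label of cortical neurons states. The 6 pan-neuronal markers summed to 991 and 972 scaled TPM in shCTCF, against 963 and 965 in shLAC, and all 6 microglia and all 5 endothelium markers stayed below 1 TPM in every library.

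Most mitochondrial ribosomal protein transcripts differed little between shCTCF and shLAC cultures, and 1 stood far from the rest. Mrpl23, which encodes the protein uL23 beside the exit of the nascent chain, fell to 44.1% of the control level. Mrps2 and Mrpl42 fell to 74.4% and 77.0% of it. At a limma adjusted p below 0.05, 3 of the 78 genes were lower in shCTCF, none was higher and 75 were not called. That is 3.85% lower, beside 3.57% lower and 2.41% higher over all 11268 genes of the same fit, so the share of lower calls was near the background. In RNA of a whole culture, fewer cells of a type and less RNA per cell cannot be told apart. At an unadjusted limma p below 0.05, 14 members were lower and 5 were higher, beside 12.3% lower and 11.2% higher of all fitted genes. When limma was run on all 12816 genes past the filter, Mrpl23 was the 1 member called, lower, both in deposited values (0.905% of all genes lower, 1.92% higher) and after scaling (0.679% lower, 0.367% higher). In the fit on deposited values the variance was that of the trend over genes and not of Mrpl23 itself.

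**Figure D1:**
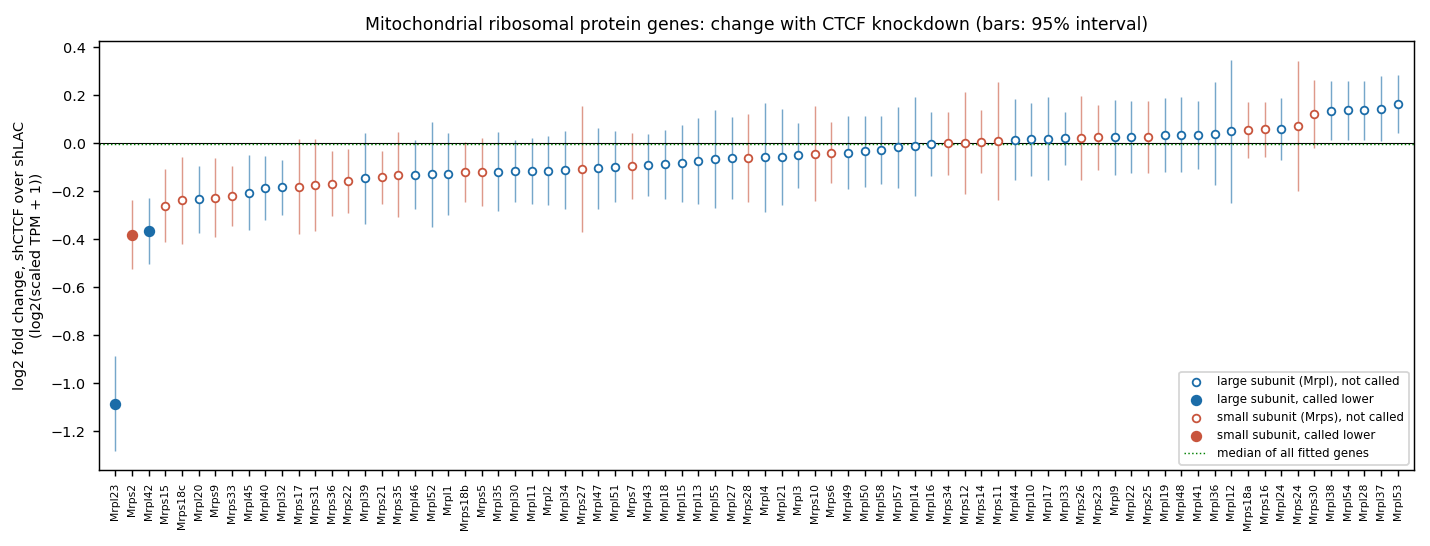
Log2 fold change of log2(scaled TPM + 1), shCTCF over shLAC, for each of the 78 mitochondrial ribosomal protein genes in order of change, with 95% limma intervals. Blue points are the large subunit and red points the small subunit, filled where called. Mrpl23 at -1.09 lies apart from all others, which run from -0.38 (Mrps2) to 0.16 (Mrpl53).

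Mrpl23 (ENSMUSG00000037772, chromosome 7, 142532686 to 142540747, + strand, GRCm38) encodes a ribosomal protein with a bacterial counterpart. It was at 6.77 and 8.07 scaled TPM in the shCTCF libraries, against 17.3 and 16.4 in the shLAC libraries. Both shCTCF libraries were low and the groups were far apart. The means were 7.42 ± 0.920 in shCTCF and 16.8 ± 0.637 in shLAC (SD, n = 2 each), with no overlap. The log2 fold change was -1.09 (SE 0.0824, 95% interval -1.28 to -0.89, limma adjusted p = 0.00346). In the deposited values the gene stood at 7.43 and 8.49 TPM in shCTCF, against 18.01 and 13.63 TPM in shLAC, so the groups did not overlap before scaling. Its call was kept in all 17 alternatives run, in which its log2 fold change lay between -1.19 and -0.90. These include a looser adjusted p threshold of 0.1 on the same fit, where no call could be lost.

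Mrps2 (ENSMUSG00000035772, chromosome 2, 28468066 to 28471178, + strand), a small subunit protein whose bacterial counterpart is S2, was at 7.20 and 6.70 scaled TPM in shCTCF, against 9.27 and 9.42 in shLAC. The groups did not overlap, and the shCTCF mean of 6.95 ± 0.358 was 74.4% of the shLAC mean of 9.34 ± 0.108 (SD, n = 2 each). Its log2 fold change was -0.38 (SE 0.0603, 95% interval -0.52 to -0.24, limma adjusted p = 0.0195). As deposited it was at 7.90 and 7.04 TPM in shCTCF, against 9.66 and 7.84 TPM in shLAC, where the groups overlapped.

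Mrpl42 (ENSMUSG00000062981, chromosome 10, 95480805 to 95501940, - strand), a mitochondria-specific protein of the large subunit, was at 21.8 and 19.98 scaled TPM in shCTCF, against 27.4 and 26.9 in shLAC. The groups did not overlap, and the shCTCF mean of 20.9 ± 1.28 was 77.0% of the shLAC mean of 27.1 ± 0.390 (SD, n = 2 each). Its log2 fold change was -0.36 (SE 0.0576, 95% interval -0.50 to -0.23, limma adjusted p = 0.0195). Its deposited values were 23.91 and 21.01 TPM in shCTCF, against 28.58 and 22.36 TPM in shLAC, and overlapped. The calls of Mrps2 and Mrpl42 were kept in 11 of 17 alternatives and lost in 6. The 11 include the looser threshold of 0.1, where no call could be lost. Among the 6 were the fits without either shCTCF library and those on deposited values. Over the alternatives the adjusted p ran from 0.0111 to 0.696 for Mrps2 and from 0.00630 to 0.735 for Mrpl42.

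The promoter windows of the 3 called genes are shown to place their transcription starts in sequence, each running from 250 bases before to 50 bases after the RefSeq start on GRCm38.p6, 5′ to 3′ on the strand of the gene. The windows are chr7:142532782-142533081 (+ strand) for Mrpl23, chr2:28467816-28468115 (+ strand) for Mrps2 and chr10:95501900-95502199 (- strand) for Mrpl42. Capitals mark a match to the YY1 motif AAGATGGCG, which begins 27 bases after the start of Mrpl42. The RefSeq start of Mrpl23 lies 346 bases from its GENCODE start.
Mrpl23: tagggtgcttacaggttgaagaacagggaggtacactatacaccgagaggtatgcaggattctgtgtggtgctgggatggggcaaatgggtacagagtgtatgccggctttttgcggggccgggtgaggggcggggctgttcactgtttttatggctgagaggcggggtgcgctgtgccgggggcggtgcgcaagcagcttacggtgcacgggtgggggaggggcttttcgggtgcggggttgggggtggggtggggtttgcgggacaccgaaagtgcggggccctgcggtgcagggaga
Mrps2: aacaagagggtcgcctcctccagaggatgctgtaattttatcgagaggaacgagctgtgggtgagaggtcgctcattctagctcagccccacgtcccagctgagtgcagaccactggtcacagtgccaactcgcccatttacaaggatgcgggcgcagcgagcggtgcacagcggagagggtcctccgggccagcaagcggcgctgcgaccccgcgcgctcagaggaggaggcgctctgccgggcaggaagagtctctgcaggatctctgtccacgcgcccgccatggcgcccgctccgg
Mrpl42: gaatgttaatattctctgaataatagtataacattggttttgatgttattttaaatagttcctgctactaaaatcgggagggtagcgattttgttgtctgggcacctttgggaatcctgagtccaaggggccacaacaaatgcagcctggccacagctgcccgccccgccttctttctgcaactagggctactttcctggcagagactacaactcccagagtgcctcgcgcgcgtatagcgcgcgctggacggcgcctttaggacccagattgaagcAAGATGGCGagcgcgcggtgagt

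A window was given for 69 of the 78 members, and 42 of them held at least 1 of 4 motifs searched on both strands. The motifs were CCGGAAG of ETS factors, AAGATGGCG of YY1, and a gapped motif each of NRF1, a regulator of nuclear genes for mitochondria, and of CTCF. The NRF1 motif was GCGC, any 2 bases and GCGC again, and that of CTCF was CC, any 3 bases, AG, any 2 bases and GGC. The ETS letters were in 34.8% of member windows, beside 17.7% of the windows of fitted genes and 8.86% of all 32851 windows. Those of NRF1 were in 20.3% of member windows, beside 13.8% of the windows of fitted genes and 6.23% of all windows. The YY1 letters were in 11.6% of member windows, beside 3.19% and 1.4%. The CTCF letters were in 13% of member windows and in 13% of the windows of fitted genes, in 9 of 43 large subunit windows and in 0 of 26 small subunit windows, and none of the 3 called genes had them. A match is a description of the letters in the window and not a site.

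The windows of Mrps21, at chr3:95871465-95871764 (- strand), and Mrps27, at chr13:99344536-99344835 (+ strand), are printed because each holds 2 of the 3 motifs of NRF1, ETS factors and YY1, as did 6 member windows in all with that of CTCF left out. They were chosen after the motifs were counted. The capitals in Mrps21 mark NRF1 letters that begin 91 bases before the start, then ETS letters read on the other strand. In Mrps27 they mark ETS letters read on the other strand, then YY1 letters. Neither gene was called.
Mrps21: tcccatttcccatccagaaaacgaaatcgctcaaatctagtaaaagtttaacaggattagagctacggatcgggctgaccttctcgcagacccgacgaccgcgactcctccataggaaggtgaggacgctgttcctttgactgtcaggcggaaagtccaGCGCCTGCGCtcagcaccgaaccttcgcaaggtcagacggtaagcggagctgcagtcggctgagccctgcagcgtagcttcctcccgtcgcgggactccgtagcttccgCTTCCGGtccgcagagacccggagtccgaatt
Mrps27: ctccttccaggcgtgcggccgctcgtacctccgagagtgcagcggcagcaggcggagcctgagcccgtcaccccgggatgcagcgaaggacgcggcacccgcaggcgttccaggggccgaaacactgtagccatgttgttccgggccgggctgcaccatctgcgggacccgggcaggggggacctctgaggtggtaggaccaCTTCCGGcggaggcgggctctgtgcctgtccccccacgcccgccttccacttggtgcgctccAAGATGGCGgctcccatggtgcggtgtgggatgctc

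The members with the highest levels differed by less than the called ones. Mrps21, whose bacterial counterpart is S21, was the most abundant member, at 39.6 and 38.6 scaled TPM in shCTCF, against 43.6 and 42.8 in shLAC (log2 fold change -0.14, limma adjusted p = 0.134). Mrpl20, an RNA-binding protein of the large subunit, was at 33.7 and 35.4 scaled TPM in shCTCF, against 42.4 and 39.1 in shLAC (log2 fold change -0.23, limma adjusted p = 0.0700). For both genes the shCTCF libraries lay below the shLAC libraries, without passing the threshold. Mrps33, a mitochondria-specific small subunit protein, had 26.5 and 27.6 scaled TPM in shCTCF, against 32.4 and 30.9 in shLAC (log2 fold change -0.22, limma adjusted p = 0.0601). Mrpl30, the counterpart of bacterial L30, averaged 33.7 ± 1.82 scaled TPM in shCTCF and 36.6 ± 0.214 in shLAC (SD, n = 2 each), with a log2 fold change of -0.12 (limma adjusted p = 0.252). The groups did not overlap for either gene, and neither was called.

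Mrpl33 and Mrps12 were close to equal in the groups. Mrpl33, the counterpart of bacterial L33, had 30.9 and 31.6 scaled TPM in shCTCF, against 30.9 and 30.6 in shLAC (log2 fold change 0.02, limma adjusted p = 0.824). Mrps12, the counterpart of the decoding centre protein S12, had 23.2 and 25.5 scaled TPM in shCTCF, against 26.5 and 22.3 in shLAC (log2 fold change 0.00, limma adjusted p = 0.996). The 2 shLAC values of Mrps12 lay on either side of the shCTCF values. Levels over the 78 members ran from 1.96 (Mrps35) to 41.2 scaled TPM (Mrps21) as means over all 4 libraries, with a median of 11.3, so the transcripts for 1 complex differed many-fold in level from gene to gene.

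**Figure D2:**
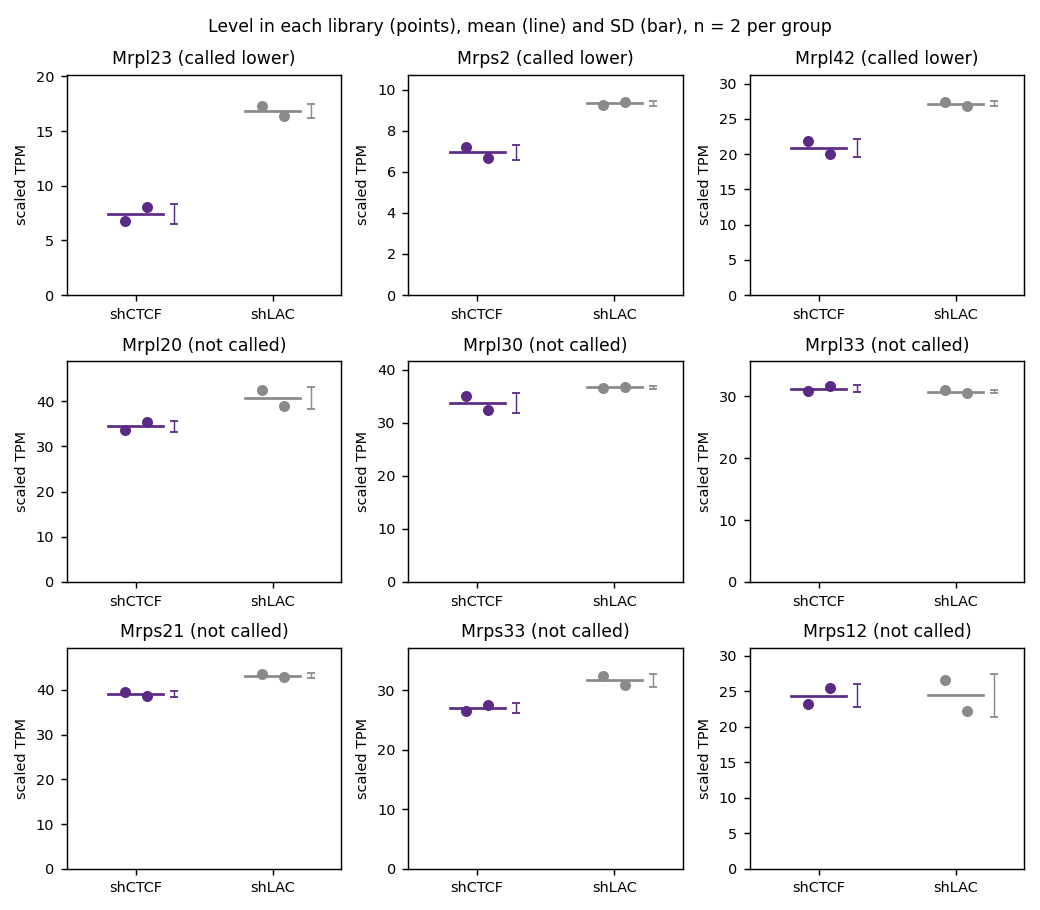
Scaled TPM in each library for the 3 called genes (top row) and for the 3 most abundant genes of each subunit that were not called, with shCTCF at left and shLAC at right. Lines are group means and bars are SD (n = 2 each). Mrpl23 averaged 7.42 in shCTCF and 16.8 in shLAC, while the values of Mrpl33 and Mrps12 overlapped.

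At the other end of the order, Mrpl53, a protein at the base of the stalk that binds translation factors, had the highest log2 fold change of the family. It was at 21.4 and 20.9 scaled TPM in shCTCF, against 19.2 and 18.4 in shLAC, a log2 difference of 0.16 with SE 0.0505 and a limma adjusted p of 0.118. The groups did not overlap but the gene was not called. Mrpl37, Mrpl28, Mrpl54 and Mrpl38, all of the large subunit, followed at 0.15, 0.14, 0.14 and 0.14, with limma adjusted p of 0.172 to 0.190. None of the 78 genes was called higher under any of the 17 alternatives.

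Over the whole family, the log2 fold changes leaned towards values below 0. The median log2 fold change of the 78 members was -0.06, beside -0.0046 over all fitted genes, and 51 of 78 (65.4%) were negative, beside 51.3% of all fitted genes. For 32 members the shCTCF values were both below the shLAC values (41.0%), beside 28% of all fitted genes. They were both above for 10 members (12.8%), beside 26.5%, and the groups overlapped for the other 36. The lean was not particular to the members. Of the 73 fitted genes for cytosolic ribosomal proteins, 69.9% were negative, with a median of -0.04. For 42.5% of those genes the shCTCF values were both below the shLAC values, and for 5.48% both above. The absolute log2 fold change was below 0.2 for 69 members (88.5%), beside 82.9% of all fitted genes. The 95% interval lay within 0.32 on the log2 scale in either direction for 62 members (79.5%), beside 70.1% of all fitted genes, so for those a larger change is outside the interval. In the deposited values, where shLAC replicate 2 is lowered throughout, the member median was 0.13 beside 0.17 over the 12816 genes past the filter. There the groups were apart with shCTCF above for 25 members and below for 1, and they overlapped for 52. No share over all genes stands beside these counts, so they are not read as a result about the members. The sign of the family's median depends on the scaling.

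Few genes of either subunit were called. Of the 49 large subunit genes, 2 were lower (Mrpl23 and Mrpl42, 4.08%) and 47 were not called. Of the 29 small subunit genes, 1 was lower (Mrps2, 3.45%) and 28 were not called. Both shares were near the 3.57% lower over all fitted genes. The median log2 fold change was -0.06 in the large subunit, over a range of -1.09 to 0.16, and -0.09 in the small subunit, over a range of -0.38 to 0.12. The medians differed by 0.04 (large minus small). With Mrps18a and Mrps30 counted in the large subunit, where structures of the mitochondrial ribosome place both proteins, this difference was 0.06. The median log2(scaled TPM + 1) of the large subunit was 3.61 and 3.59 in shCTCF, against 3.67 and 3.63 in shLAC. That of the small subunit was 3.56 and 3.49, against 3.67 and 3.62. The gap between these levels was wider in both shCTCF libraries than in both shLAC libraries. Its replicate SD was 0.0314, which is not an SD of the difference in log2 fold change. Negative log2 fold changes were 32 of 49 in the large subunit and 19 of 29 in the small subunit. At an unadjusted limma p below 0.05, 6 large subunit genes were lower and 5 were higher, and 8 small subunit genes were lower and 0 were higher. The shares over all fitted genes at that p were 12.3% lower and 11.2% higher. The shCTCF values were both below the shLAC values for 36.7% of large and 48.3% of small subunit genes, beside 28% of all fitted genes. They were both above for 14.3% and 10.3%, beside 26.5%. These differences between the subunits were not tested. Without Mrpl23 the large subunit median was -0.05.

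**Figure D3:**
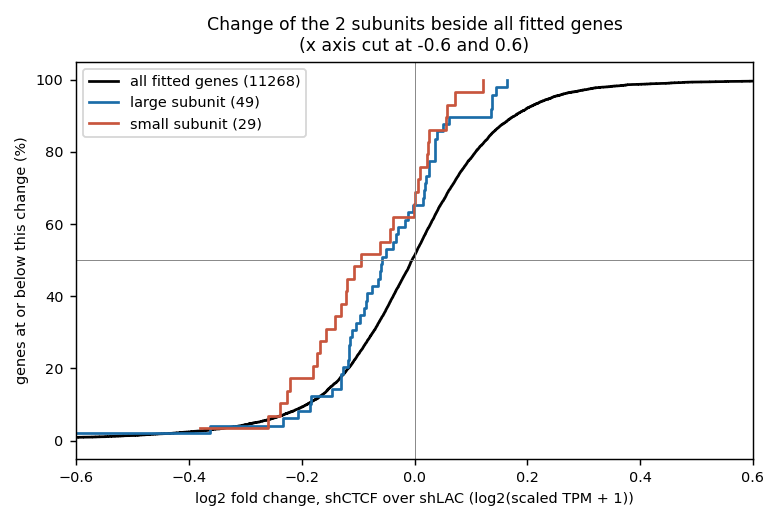
Percent of genes (y axis) at or below each log2 fold change, shCTCF over shLAC (x axis, shown from -0.6 to 0.6), for the 49 large subunit genes, the 29 small subunit genes and all 11268 fitted genes. Both subunit curves cross 50% left of the curve of all genes, at -0.06 for the large and -0.09 for the small subunit, and both are narrower on the side of higher levels.

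Summed levels of both subunits were slightly lower in shCTCF after scaling. The large subunit genes summed to 625 and 630 scaled TPM in shCTCF, against 662 and 657 in shLAC (627 ± 3.75 and 659 ± 3.69, SD, n = 2 each), which is 95.1% of control. Part of this difference lay in Mrpl23, without which the large subunit summed to 618 and 622 in shCTCF, against 645 and 640 in shLAC. The small subunit genes summed to 374 and 375 in shCTCF, against 411 and 390 in shLAC (374 ± 0.924 and 400 ± 14.6), which is 93.4% of control. For both sums the shCTCF libraries were below the shLAC libraries. The ratio of the large to the small sum was 1.67 and 1.68 in shCTCF, against 1.61 and 1.68 in shLAC (1.68 ± 0.00588 and 1.65 ± 0.0508), and the groups overlapped. With Mrps18a and Mrps30 counted in the large subunit the ratio was 1.918 and 1.917 in shCTCF, against 1.813 and 1.901 in shLAC. Without Mrpl23 it was 1.654 and 1.659 in shCTCF, against 1.569 and 1.641 in shLAC. In both of these versions the groups did not overlap, so the overlap depends on the genes counted. The ratios were not tested. In deposited TPM the sums were 108.9% of control for the large and 106.8% for the small subunit. The 77 cytosolic ribosomal protein genes, which build the other ribosome of the cell, summed to 97.2% of control after scaling.

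**Figure D4:**
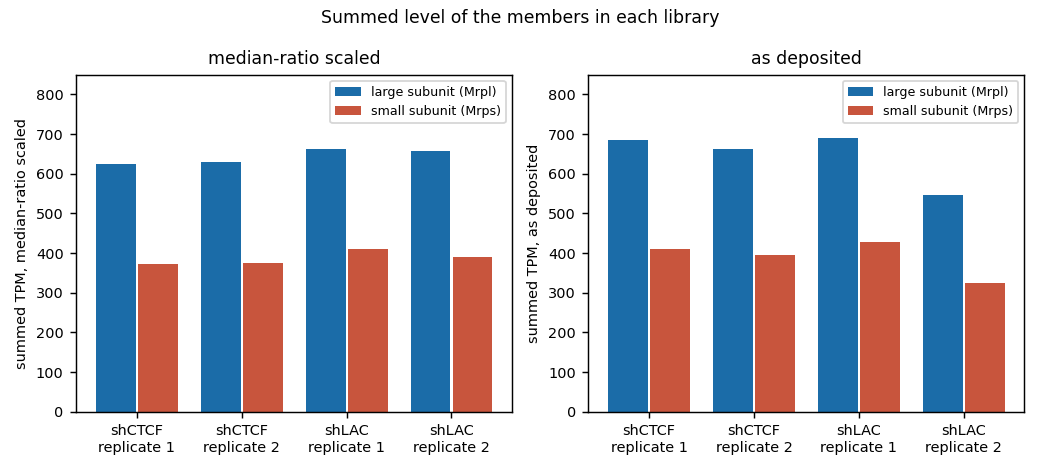
Summed TPM of the large (blue) and small (red) subunit genes in each library, shCTCF at left and shLAC at right, after median-ratio scaling (left panel) and as deposited (right panel). After scaling the large subunit sums are 625 and 630 in shCTCF and 662 and 657 in shLAC. As deposited, shLAC replicate 2 is the lowest library.

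Grouped by structure, the members gave no part of the ribosome in which most genes were called. Over all fitted genes 3.57% were lower, and the groups of 4 to 10 genes below are too small to be read against that share. Of the 48 members with a bacterial counterpart, 2 were lower (Mrpl23 and Mrps2, 4.17%) and the median log2 fold change was -0.06. Of the 30 mitochondria-specific members, 1 was lower (Mrpl42, 3.33%) and the median was -0.04. Of the 6 proteins around the tunnel exit, Mrpl23 alone was called. Its neighbours in the structure there, Mrpl45, Mrpl47, Mrpl17, Mrpl22 and Mrpl24, had log2 fold changes of -0.21 to 0.06, with limma adjusted p of 0.125 or more. The 6 genes summed to 42.1 and 43.4 scaled TPM in shCTCF, against 53.3 and 51.8 in shLAC. Without Mrpl23 the other 5 summed to 35.3 and 35.3 in shCTCF, against 36.0 and 35.4 in shLAC, so nearly all of the difference lay in Mrpl23. None of the 4 genes of the stalk and its base (median 0.03) and none of the 10 of the central protuberance (median -0.06), which contacts the small subunit, was called.

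Member transcripts are short, with a median length of the longest coding transcript of 1328 nt, beside 3299 nt over all fitted genes. Within classes of that length the member medians were -0.05 below 1000 nt (24 genes), -0.06 from 1000 to 2000 nt (29 genes) and -0.08 above 2000 nt (25 genes). All fitted genes had medians of -0.02, -0.03 and 0.00 in the same classes. Within classes of level, the member medians were -0.09 below 10 scaled TPM (30 genes), -0.04 from 10 to 30 (44 genes) and -0.13 above 30 (4 genes), where all fitted genes had -0.01, 0.00 and -0.01. The members were below all fitted genes in each of these classes. Whether counting used strand is not stated in the labels, and 39 members overlap another annotated gene of the files, among them Mrpl46 and Mrps11, which overlap each other on opposite strands, so reads of such pairs may be shared. None of the 3 called genes overlaps another gene of the files.

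Mrpl23 neighbours H19 and Igf2, imprinted genes whose shared control region is a textbook site of CTCF binding. Within 250 kb of the start of Mrpl23, 19 other genes were annotated in the files, and 1 of them, Ctsd, passed the filter. Ctsd, which encodes the lysosomal protease cathepsin D, was at 71.3 and 71.2 scaled TPM in shCTCF, against 68.3 and 68.9 in shLAC (log2 fold change 0.05, limma adjusted p = 0.515). H19, whose start lies 45.5 kb downstream of that of Mrpl23, was at 0.27 and 0.16 TPM as deposited in shCTCF, against 0.25 and 0.26 TPM in shLAC. Igf2, which encodes a growth factor, was at 0.37 and 0.08 TPM in shCTCF, against 0.18 and 0.14 TPM in shLAC. Both were too low to be fitted, so Mrpl23 was the only gene of its neighbourhood called. The neighbourhoods of the other called genes were added after their values were seen. Around Mrps2, 0 of 5 fitted neighbours was called, where 3.57% of all fitted genes were lower and 2.41% higher. Around Mrpl42, 1 of 4 was called: Socs2, a suppressor of cytokine signalling that starts at -84.8 kb on the chromosome, at 7.75 and 7.40 TPM as deposited in shCTCF, against 10.17 and 9.66 TPM in shLAC (-0.53 on the scaled log2 fold scale, SE 0.0827, limma adjusted p = 0.0187). Its call was kept in 11 of 17 alternatives, among them the threshold of 0.1, where no call could be lost.

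Among the 82 other fitted genes of mitochondrial translation 4 were called, and all of these were lower, where 3.57% of all fitted genes were lower. Of 5 mitochondrial ribosome proteins with other symbols, 0 were called, and the 2 most abundant, Aurkaip1 and Chchd1, had log2 fold changes of 0.04 and -0.05. Of 26 assembly factors, 3 were lower (11.5%, beside 3.57% of all fitted genes) and 0 were higher, with a median of -0.04. Mrm1, a methyltransferase of the large ribosomal RNA, was at 1.48 and 1.33 TPM as deposited in shCTCF, against 2.64 and 1.93 TPM in shLAC (-0.57 as scaled log2 fold change with SE 0.0751 and a limma adjusted p of 0.0112). Mtg1, a GTPase of large subunit assembly, was at 3.42 and 2.96 TPM in shCTCF, against 4.36 and 3.65 TPM in shLAC (-0.41, limma adjusted p = 0.0252). Mrm3, a further methyltransferase of that RNA, was at 3.73 and 3.61 TPM in shCTCF, against 4.96 and 3.57 TPM in shLAC, where the deposited values overlapped (-0.32, limma adjusted p = 0.0499). The call of Mrm1 was lost in 6 of 16 alternatives, as was that of Mtg1, and that of Mrm3 in 11 of 16. No call could be lost at the threshold of 0.1, which is counted in the 16.

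Of 15 translation factors, 1 was lower (6.67%, beside 3.57% of all fitted genes) and the median was -0.07. Gfm1, the elongation factor that moves the ribosome along the mRNA, was at 7.15 and 6.39 TPM as deposited in shCTCF, against 8.79 and 6.72 TPM in shLAC (-0.34 as scaled log2 fold change with SE 0.0624 and a limma adjusted p of 0.0305). Its deposited values overlapped, and its call was lost in 6 of 17 alternatives. No call could be lost at the threshold of 0.1, which is counted in the 17. Of 20 genes of aminoacyl-tRNA synthesis, 0 were called. Lars2, which charges the leucine tRNA, had 10.44 and 83.64 TPM as deposited in shCTCF, against 46.99 and 72.16 TPM in shLAC, so in these values its shCTCF libraries lay on either side of the control, and its scaled log2 fold change of -1.13 had an SE of 0.846 (limma adjusted p = 0.465). Rars2, which charges the arginine tRNA, had a log2 fold change of -0.06 (limma adjusted p = 0.548). In the deposited values Lars2 was called (log2 fold change -0.93, limma adjusted p = 0.00303), in a fit whose variance is that of the trend over genes and not of Lars2 itself. None of 5 mitochondrial transcription genes was called, with 0.07 for Tfam, which packages mitochondrial DNA, and -0.17 for Tfb2m, which opens the promoter.

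**Figure D5:**
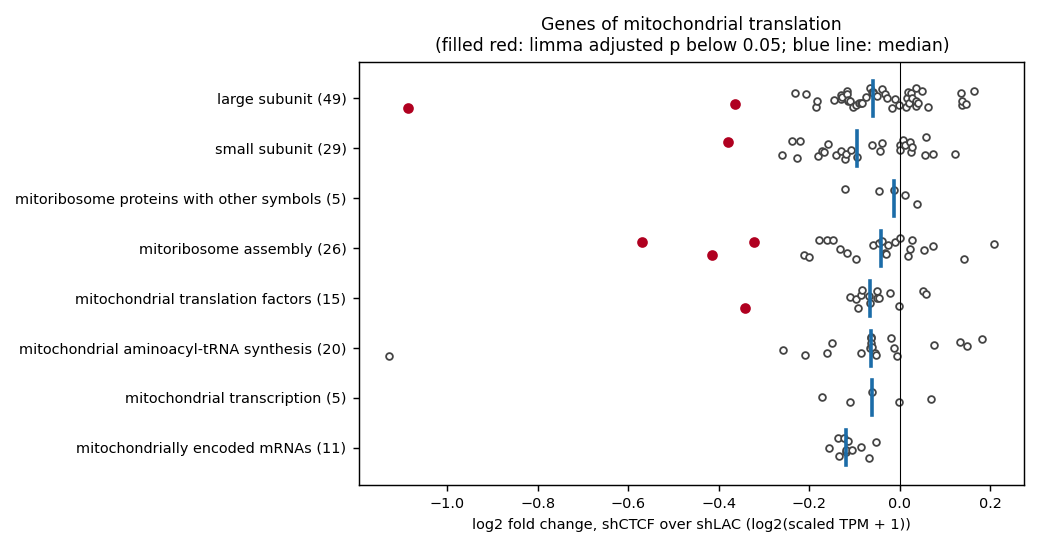
Log2 fold change of log2(scaled TPM + 1), shCTCF over shLAC, for each gene of mitochondrial translation and its products, 1 row per group with the number of fitted genes. Filled red points passed the limma adjusted p of 0.05 and blue lines are medians. The 7 filled points, Mrpl23 to Gfm1, are all lower, and the point at -1.13 that is not filled is Lars2.

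The RNAs that the ribosome is built on and reads came from the mitochondrial genome. The small ribosomal RNA mt-Rnr1 was at 44246 and 38395 TPM as deposited in shCTCF, against 32948 and 33421 TPM in shLAC. After scaling its values were 40339 and 36518 in shCTCF, against 31609 and 40158 in shLAC, so groups that were apart as deposited overlapped. The large ribosomal RNA mt-Rnr2 was at 157647 and 153500 TPM in shCTCF, against 166766 and 136577 TPM in shLAC, where the groups overlapped. After scaling it was at 143725 and 145996 in shCTCF, against 159988 and 164107 in shLAC, with both shCTCF libraries below. For both RNAs, whether the groups overlapped thus depends on the scaling. Neither is protein-coding, so neither was in the fit. Of the 13 mRNAs, 11 were long enough to be fitted, 0 were called, and all 11 had a negative log2 fold change after scaling, with a median of -0.12, though the groups overlapped for 8 of the 11. mt-Co3, a subunit of cytochrome oxidase, was at 8668 and 7998 TPM as deposited in shCTCF, against 8642 and 7120 TPM in shLAC (scaled log2 fold change -0.12, limma adjusted p = 0.416). mt-Co1, the catalytic subunit of the same enzyme, was at 7907 and 7590 TPM in shCTCF, against 7495 and 6616 TPM in shLAC (-0.07, limma adjusted p = 0.681). The sign depends on the scaling, since as deposited the log2 fold change was 0.09 for mt-Co3 and 0.14 for mt-Co1, and under quantile normalisation both were at 0. Without shLAC replicate 2 that of mt-Co1 was 0.00. These mRNAs were read from the same libraries and most come from a shared precursor, so they are not independent of each other.

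Some cell type markers moved between the groups. All 8 astrocyte markers had a negative log2 fold change, beside 51.3% of all fitted genes. Of them 2 were called lower, Aqp4 and Slc1a3 (25%, beside 3.57% of all fitted genes). The shCTCF values were both below the shLAC values for 3 of the 8 (37.5%, beside 28%), and the groups overlapped for the other 5. The astrocyte list summed to 107 and 85.1 scaled TPM in shCTCF, against 134 and 112 in shLAC. The 6 excitatory neuron markers summed to 233 and 222 in shCTCF, against 190 and 198 in shLAC, with 0 called. The neuronal marker Rbfox3 was higher, as was Slc32a1 of the inhibitory neuron list, in which Calb2 was lower. Of the fibroblast list, 1 gene of 5 was fitted, Dcn, and it was lower, at 2.10 and 1.77 TPM as deposited in shCTCF, against 3.17 and 2.33 TPM in shLAC. None of the 7 fitted oligodendrocyte lineage markers and none of the 5 markers of proliferating cells was called. The part of these markers in the changes of the mitochondrial ribosomal protein genes was not tested.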

How the data were processed

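Total RNA from primary mouse cortical culture was sequenced as paired reads, per the labels' protocols. The deposited files hold TPM per Ensembl gene, 1 file per library, and the submitters' processing notes list RSEM 1.2.28, CASAVA and mm10 without roles. The sources used here do not give the annotation release or strandedness. Since TPM is a share of a fixed total, a class of RNA that is abundant in 1 library lowers all other values of that library, and depth is lost. GENCODE vM21 (GRCm38) matched 37060 of 37437 identifiers.

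The 12816 genes that reached 1 TPM in 2 libraries or more gave median-ratio factors. Protein-coding genes with 300 nt or more of merged exon (11268), without 13 satellite-like predicted genes, were fitted on log2(scaled TPM + 1) with limma 3.58.1 in R 4.3.3, with no covariate, a prior with a trend, and Benjamini-Hochberg adjustment at 0.05 over all of them. The prior had 4.65 degrees of freedom and the residuals 2. Satellite-like genes are predicted genes on chromosomes 2, 9 and 14 with over 500 TPM in shLAC replicate 2 and over 10 times their level in shLAC replicate 1. Fold changes on this scale understate those of low genes.

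Named are Ctcf, every member called, the 3 most abundant members of each subunit, and per other list up to 4 called genes or else the 2 most abundant. Any further gene was picked with its values known. The members, the lists and the fit on scaled coding genes were chosen with earlier results of these data known. Medians and sums over members carry no test. As alternatives the scaling, the filter, the pseudocount and the threshold were changed, the trend was dropped, a curve of transcript length was subtracted, a replicate block was added, and single libraries were omitted. Promoter windows are from RefSeq on GRCm38.p6.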

Additional observations from a re-analysis of the deposited data

How the results depend on the processing

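The number of members called higher was 0 in all 17 alternatives. The number called lower was 3, and it stayed at 3 under quantile normalisation, a subtracted length curve, both other pseudocounts, a mean of at least 5 TPM, no trend and factors from the coding genes, the last of these chosen after seeing the data. It was 1 (Mrpl23) over all genes as deposited, over all genes scaled, over coding genes as deposited and without a filter. It was 7 at an adjusted p of 0.1, and 1 to 7 with a library left out. Without either shCTCF library it was 1, without shLAC replicate 1 it was 4 and without shLAC replicate 2 it was 7, with the lone sample taken to vary like the other group. Among all fitted genes the 402 lower calls became 116, 87, 51 and 124 in the first 4 settings, 222 at a mean of at least 5 TPM, 729 at an adjusted p of 0.1, and 4 to 587 with a library left out. The 272 higher calls became 47 over all genes scaled, 114 over coding genes as deposited, 58 without a filter, 167 at a mean of at least 5 TPM, 566 at an adjusted p of 0.1, and 2 to 433 with a library left out. The 4 lower calls among the other genes of mitochondrial translation became 1, 0, 1 and 0 in the first 4 settings, 1 at a mean of at least 5 TPM and 0 to 11 with a library left out. The cause of these moves was not tested, beyond the smaller number of samples or genes that some settings hold. The shared replicate number does not mark a pairing in the labels. Same-numbered libraries had deviations that correlated at 0.246 over fitted genes and 0.0394 over members. The replicate block gave 5 lower members (Mrps15 and Mrps33 added), 629 lower and 476 higher genes. As deposited, the median log2 fold change was 0.134 for the large subunit, 0.0916 for the small subunit and 0.131 for all members, and the sums were 108.9% and 106.8% of control. Less the median of all genes, the member median was then -0.04. With a transcript length curve subtracted the medians were -0.0285 for the large subunit and -0.0329 for all members. With a library left out they ran from -0.0737 to -0.0301 for the large subunit, from -0.126 to -0.0766 for the small subunit and from -0.0880 to -0.0418 for all members. Ctcf and the 8 other called genes refitted under the alternatives (Mrpl23, Mrps2, Mrpl42, Gfm1, Mrm1, Mtg1, Mrm3 and Socs2) kept their sign in each. The difference between the subunit medians of log2 fold change moved by less than 0.0314 in every alternative. That bound is the replicate SD of the gap between the subunit median levels. Scaling over all genes, no trend, the replicate block and the threshold of 0.1 leave every fold change as it was. In those settings neither the signs nor the difference could move. At the threshold of 0.1 no call could be lost either. Mrpl20 was called without shLAC replicate 2 (-0.29, limma adjusted p = 0.0169), as was Mrps33 (-0.26, limma adjusted p = 0.0352). Depth is unknown, so the limits for genes of a few TPM cannot be given.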
